A study of Mus musculus with 16 samples.

Results

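The transcripts described here encode subunits and activators of the proteasome. They are the 41 genes, of 41325 in the deposited tables, whose symbols begin with Psma, Psmb, Psmc, Psmd or Psme and a digit. The inducible subunits Psmb8, Psmb9 and Psmb10 and pseudogene-type names were left out by that choice. All libraries came from immortalized preadipocytes, a cultured line of fat cell precursors, of wild type C57Bl6/J mice. One group at each day was untreated (agent: none), and the other had received interleukin-13 (IL-13), a type 2 immune cytokine, for 16 h as a pre-treatment. Cells were taken at day 0 or at day 6 of differentiation, so that each of the 4 groups held 4 libraries, and the study 16. The labels name neither the inducers of differentiation nor separate cultures behind the libraries, so the spread behind each p-value is that of these libraries alone and may be technical.

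The proteasome is the cell's main machine for degrading ubiquitin-tagged proteins. Its 20S core is a barrel of stacked rings: the outer rings of alpha subunits form the gate, and the inner rings of beta subunits carry the proteolytic sites. The 19S particle caps the barrel. Its base holds a ring of ATPases that unfolds substrates, and its lid removes ubiquitin. Other caps (PA28 and PA200) open the gate without ubiquitin recognition. Transcription of many subunit genes is raised by the factor Nfe2l1 when proteasome activity is low, and in fat tissue this axis is known from brown adipocytes.

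The 41 members comprise 8 alpha subunits, 8 beta subunits, 6 base ATPases, 3 base non-ATPases, 8 lid subunits, 3 base assembly chaperones and 5 activator cap genes. Counts were scaled to library size as CPM, with sizes adjusted by the trimmed mean of M values (TMM), and 38 members passed the filter on low counts. Of the others, Psma8, the alpha subunit known from testis, had 0 counts in all 16 libraries. With 3 counts over the 4 libraries of a group as the limit, that allows at most 0.0443 to 0.0464 CPM. Psmb11, the thymus-specific beta subunit, had 2, 3, 1 and 2 counts summed over untreated day 0, IL-13 day 0, untreated day 6 and IL-13 day 6. Psme2b, a single-exon copy of Psme2, had 19 and 15 counts at day 0 and 0 in both groups at day 6. Of its 50-base stretches, 69.3% occur in other annotated genes, so its reads cannot be assigned with certainty.

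Library totals ran from 15253031 to 18112087 counts, and the members took 0.471% to 0.613% of them. Adipocyte markers matched the day labels: 9 of 9 tested rose by day 6 in untreated cells, and their summed level went from 505 to 546 CPM at day 0 to between 24424 and 26384 CPM. Of 8 preadipocyte markers 6 fell. Cell cycle markers summed to between 2389 and 2461 CPM at day 0 and to between 1974 and 2057 CPM at day 6 in untreated cells. Endothelial markers reached at most 4.06 CPM and epithelial markers at most 0.309 CPM in sum, while macrophage markers summed to between 1.74 and 11.9 CPM with Adgre1 at 0 in every group. A list of 25 nuclear-retained RNAs and splicing-factor transcripts separated the IL-13 libraries from the untreated ones on both days, and its values are given beside the results below.

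Between genes, levels were compared as the authors' deposited TPM, which is scaled to a length for each gene. In untreated cells at day 0, the median of the 38 members was 135 TPM. The highest was Psmd2, a base scaffold subunit, at 358 ± 4.21 TPM (SD, n = 4), and the lowest was the chaperone Psmd9 at 20.6 ± 1.53 TPM. Other annotated genes hold 17.8% of the 50-base stretches of Psmd2. Subunits that occupy equal numbers of places in a ring differed in TPM. The 7 tested alpha subunits spanned 3.29-fold, from Psma2 to Psma6, and the 7 tested beta subunits 2.39-fold, from Psmb7 to Psmb5. The lower ends also have more annotated exon bases (Psma2 3673, Psmb7 3421) than the upper ends (Psma6 1234, Psmb5 899). These spans therefore depend on the length used and do not show unequal transcript levels within a ring. The 3 assembly chaperones, which leave the finished particle, lay between 20.6 and 59.7 TPM. At day 6 the alpha ring spanned 6.13-fold, from Psma7 at 100.4 ± 4.36 TPM to Psma6 at 616 ± 27.5 TPM, and the coefficient of variation over all 38 members was 69.6%, compared with 56.2% at day 0. Psma1 moved from rank 28 to rank 4 among the 38, and Psme2 from rank 26 to rank 3.

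**Figure D1:**
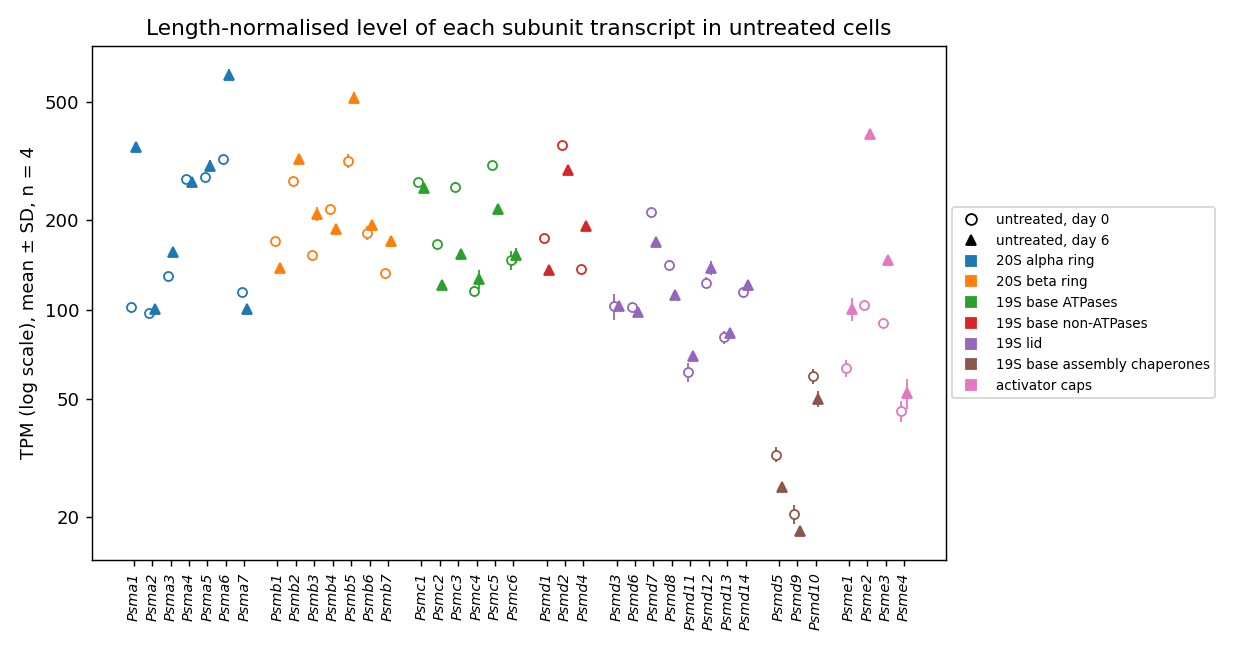
Deposited TPM of the 38 tested members in untreated cells (y axis, log scale; mean ± SD, n = 4), at day 0 (open circles) and day 6 (filled triangles), coloured by place in the particle. Psma1, Psma6, Psmb5 and Psme2 stand above their day 0 level at day 6, and Psmc3 and Psmc5 below it.

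Over 6 days of differentiation in untreated cells, most tested members of the 20S core, the lid and the activator caps rose under TMM scaling. Psme2, Psma1, Psma6, Psme3 and Psmb5 rose the most. The base ATPases split, with 3 higher and Psmc3, Psmc5 and Psmc2 lower. In edgeR's quasi-likelihood test, 25 of 38 members rose and 5 fell at an adjusted p under 0.05. Of all 13157 genes tested, 80.5% were called, 41.5% higher and 39% lower, so the share of members called was near the background and only their split, 25 against 5, was uneven. That split was 23 against 7 with DESeq2, 22 against 9 with upper quartile scaling, 20 against 10 with total count scaling, and 15 against 13 on the deposited TPM, where the median of all genes lay at -0.16 (log2). Without untreated day 6 replicate 4, 8 members were lower. The members' median log2 fold change was 0.26, and that of all genes 0.04. Changes past 1.5-fold were confined to 8 members, all higher. In 21 members every day 6 library lay above every day 0 library, and in 4 below, against 38.8% and 36.6% of all genes. In bulk RNA, a different mix of cells and a different amount of RNA per cell cannot be told apart.

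IL-13 pre-treated cells, whose libraries are separate, gave 20 members higher and 9 lower, with 40.6% and 40.3% of all genes called in each direction (80.8% in all) and a median of 0.20 for the members. The number lower was 4 without IL-13 day 0 replicate 3, and 5 without IL-13 day 0 replicate 2, IL-13 day 6 replicate 1 or IL-13 day 6 replicate 4. The 19 members that rose in both made up 19 of the 25 and 19 of the 20. The share of all genes that rose in both was not counted, so these counts are not specific to the members. Those that fell in both were Psmc2, Psmc3, Psmc5 and Psmd1. Across the 10 other settings tried, 14 of the 25 members that rose in untreated cells were called higher each time. They were Psma1, Psma3, Psma6, Psmb2, Psmb3, Psmb5, Psmb7, Psmc4, Psmd4, Psmd11, Psmd12, Psme1, Psme2 and Psme3. Of the 5 that fell, Psmc2, Psmc3 and Psmc5 were called lower each time. The share of all genes called the same way under every setting was not counted either.

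**Figure D2:**
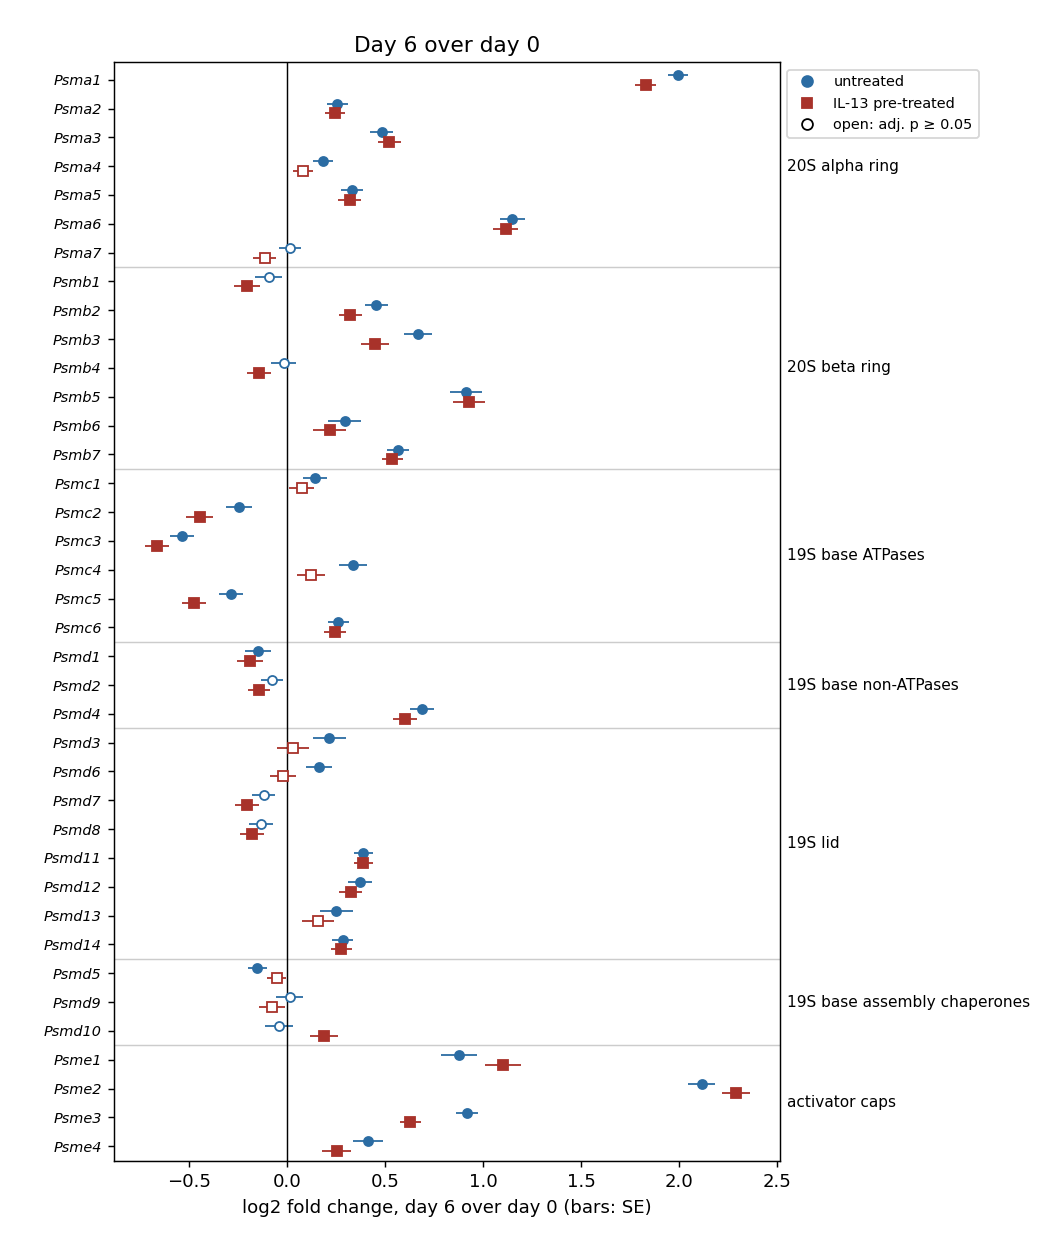
Log2 fold change of each tested member, day 6 over day 0 (x axis; bars are SE), in untreated (blue circles) and IL-13 pre-treated cells (red squares); open symbols did not pass an adjusted p of 0.05. Psma1 and Psme2 lie near 2 in both, and Psmc2, Psmc3 and Psmc5 lie below 0 in both.

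Promoter sequence was printed for some members that changed, since genes that move in opposite directions can be compared there by eye. The printed genes were chosen by hand and are not all the leaders. Psme3, which rose as much as Psmb5, has a window but is not printed. Psmc3, which fell the most, had no window. The RefSeq table (GRCm38.p6) held windows for 34 of the 41 genes, 37 windows of 300 bases in all, from 250 before to 50 after a start site. The 150 bases before the start are printed 5′ to 3′ on the gene's strand for 4 members that rose and 2 that fell, with motif matches in capitals. They lie at chr7:114276117-114276266 (Psma1, minus strand), chr12:55384072-55384221 (Psma6, plus), chr14:54617996-54618145 (Psmb5, minus), chr14:55591102-55591251 (Psme2, minus), chr5:21785125-21785274 (Psmc2, plus) and chr11:106256035-106256184 (Psmc5, plus). Psma6, Psme2 and Psmc2 have 2 annotated start sites, of which 1 is shown.
Psma1: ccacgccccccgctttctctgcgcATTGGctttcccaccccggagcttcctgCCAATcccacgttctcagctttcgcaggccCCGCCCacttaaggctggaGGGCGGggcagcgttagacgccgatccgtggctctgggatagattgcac
Psma6: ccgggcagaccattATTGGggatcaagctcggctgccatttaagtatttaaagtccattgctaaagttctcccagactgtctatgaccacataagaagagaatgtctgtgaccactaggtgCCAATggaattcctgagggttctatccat
Psmb5: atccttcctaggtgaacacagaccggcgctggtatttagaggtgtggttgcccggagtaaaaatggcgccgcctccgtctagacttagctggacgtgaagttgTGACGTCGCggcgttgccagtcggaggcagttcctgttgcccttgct
Psme2: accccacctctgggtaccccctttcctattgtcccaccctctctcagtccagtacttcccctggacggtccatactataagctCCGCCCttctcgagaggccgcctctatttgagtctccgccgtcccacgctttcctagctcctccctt
Psmc2: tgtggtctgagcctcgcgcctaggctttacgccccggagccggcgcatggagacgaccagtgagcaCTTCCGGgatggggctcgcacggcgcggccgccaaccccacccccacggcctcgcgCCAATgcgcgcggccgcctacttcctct
Psmc5: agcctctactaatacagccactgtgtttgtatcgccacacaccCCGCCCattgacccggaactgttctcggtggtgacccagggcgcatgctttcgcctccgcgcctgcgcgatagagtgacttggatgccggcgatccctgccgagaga
The capitals mark CCAAT boxes in Psma1, Psma6 and Psmc2, GC boxes in Psma1, Psme2 and Psmc5, an Ets site in Psmc2, and in Psmb5 a match 47 bases before the start to TGACNNNGC, the element that Nfe2l1 binds with small Maf proteins. Both strands were searched, and overlaps between motifs were allowed. TGACNNNGC was in 6 of the 37 member windows (16.2%; Psmb5, Psmb6, Psmc6, Psmd9, Psmd12 and Psme4) and in 12.4% of all 32851 windows. The Ets motif CCGGAAG was in 35.1% of member windows and 8.86% of all windows, and the GC box GGGCGG in 59.5% and 35.7%. CCAAT was in 35.1% and 37.4%. The interferon-type motif, a pair of TTTC repeats 2 bases apart, was in 10.8% and 3.44%, in the windows of Psmb3, Psmd4, Psmd9 and Psme1. The Stat6 motif, TTC and GAA 4 bases apart, was in 0 of 37 windows and in 6.95% of all. A match is a description of these letters only.

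In the alpha ring, 6 of 7 tested subunits rose in untreated cells and 0 fell under TMM scaling, while on TPM Psma7 was called lower (log2 -0.19). Psma1, which sits in the gate ring (chr7:114264606-114276118, minus strand, 9 exons), was at 80.1, 84.1, 85.2 and 77.7 CPM in the untreated day 0 libraries and at 332, 314, 321 and 336 CPM at day 6. The 2 sets of libraries were far apart and each was tight. The fold was 3.98 (log2 1.99, SE 0.05, adjusted p 2.33e-18), and 3.55 in IL-13 pre-treated cells (adjusted p 9.14e-18). None of its 50-base stretches occurs in another annotated gene. Psma6 (chr12:55384222-55418454, plus strand, 8 exons) was at 102, 110.2, 118 and 99.0 CPM at day 0 and at 224, 232, 238 and 259 CPM at day 6. It rose 2.22-fold (log2 1.15, SE 0.06, adjusted p 6.77e-13) with no overlap, and 2.17-fold in IL-13 pre-treated cells. The remaining changes in the ring were smaller. Psma3, Psma5, Psma2 and Psma4 rose by 0.48, 0.33, 0.26 and 0.18 on the log2 scale, and Psma7 was at 0.01 with TMM (SE 0.06, adjusted p 0.821). Psma5 shares 49.1% of its 50-base stretches with other annotated genes, so its value is uncertain. The TPM of Psma1 over that of Psma7, another alpha subunit, was 0.889 ± 0.00939 at day 0 and 3.52 ± 0.205 at day 6 (SD, n = 4, untreated), without overlap.

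In the beta ring, 5 of 7 tested subunits rose in untreated cells under TMM scaling, and Psmb1 and Psmb4 did not pass the test there, though both were called lower with total count scaling and on TPM. The 3 proteolytic subunits differed in size of change. Psmb5, which carries the chymotrypsin-like site (chr14:54614119-54618022, minus strand, 3 exons), was at 74.0, 72.8, 86.0 and 76.2 CPM at day 0 and at 133, 143, 153 and 153 CPM at day 6. It rose 1.89-fold (log2 0.91, SE 0.08, adjusted p 1.49e-09) with no overlap between the days, though 54.1% of its 50-base stretches occur in other annotated genes. Psmb7, the trypsin-like subunit, was at 117, 127, 130.4 and 116 CPM at day 0 and at 177, 182, 185 and 184 CPM at day 6, a 1.48-fold rise (adjusted p 4.84e-09) with no overlap. Psmb6, the caspase-like subunit, was at 85.4, 89.3, 103 and 91.4 CPM at day 0 and at 111, 108, 119.9 and 114 CPM at day 6. Its rise was 1.23-fold (adjusted p 0.00292), and it was not called with a gene length offset (log2 0.13) or on TPM (log2 0.09). Psmb3 rose 1.59-fold and Psmb2 1.37-fold, while Psmb1 and Psmb4 stood at -0.09 and -0.02 on the log2 scale. In IL-13 pre-treated cells Psmb1 and Psmb4 fell by 0.21 and 0.14 on the log2 scale. Neither call held in every fit. Psmb1 was called lower in all 10 other settings, but lost the call without IL-13 day 0 replicate 3 or IL-13 day 6 replicate 1. Psmb4 was called in 6 of the 10 settings, and lost the call in 14 of the 16 cases in which 1 library was left out.

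Of the inducible subunits that can replace the catalytic ones, Psmb8 and Psmb9 were rare beside them at both days, and Psmb10 less so. Psmb9 was at 1.13, 1.35, 1.09 and 1.71 CPM in untreated cells at day 0 and at 5.92, 5.52, 6.00 and 6.32 CPM at day 6, a rise of 2.16 on the log2 scale (SE 0.20, adjusted p 2.64e-09). Its TPM was 0.738% ± 0.175 of that of Psmb6 at day 0 and 2.69% ± 0.123 at day 6. Psmb8 rose by 1.52 on the log2 scale, and its TPM went from 1.42% ± 0.382 to 2.16% ± 0.313 of that of Psmb5. Psmb10 did not pass the test (log2 0.26, SE 0.13, adjusted p 0.0733), and the ratio of its TPM to that of Psmb7 was 0.135 ± 0.00658 at day 0 and 0.11 ± 0.0132 at day 6 (SD, n = 4).

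The ATPases of the 19S base split in untreated cells, with Psmc1, Psmc4 and Psmc6 higher and Psmc2, Psmc3 and Psmc5 lower. Psmc3 (chr2:91054009-91066369, plus strand, 12 exons) was at 178, 178, 203 and 172 CPM at day 0 and at 123, 127, 131 and 124 CPM at day 6. All day 6 values lay below all day 0 values, a 1.45-fold fall (log2 -0.54, SE 0.06, adjusted p 1.13e-07). Exons of Slc39a13 on the other strand cover 8.25% of its exon bases, and whether counting used the strand is not given in the sources used here. Psmc5 was at 113, 116, 127 and 107 CPM at day 0 and at 91.2, 93.3, 99.8 and 96.7 CPM at day 6, a 1.22-fold fall (adjusted p 0.000292). Psmc2 was at 219.5, 237, 243 and 205 CPM at day 0 and at 181, 185, 199 and 198 CPM at day 6, a 1.19-fold fall (adjusted p 0.00243). The libraries of the 2 days did not overlap for either gene. In IL-13 pre-treated cells the falls were 1.58-fold for Psmc3, 1.39-fold for Psmc5 and 1.36-fold for Psmc2, again with no overlap. Of the 3 ATPases that rose, Psmc4 and Psmc6 rose by 0.34 and 0.26 on the log2 scale, and Psmc1 by 0.14 (adjusted p 0.0421). Psmc1 was not called in DESeq2, with other scalings or on TPM, and lost its call in 15 of the 16 cases in which 1 library was left out.

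Among the base non-ATPases, Psmd4, a ubiquitin receptor, was at 103, 103, 113 and 98.2 CPM at day 0 and at 163, 162, 171 and 177 CPM at day 6. It rose 1.61-fold (log2 0.69, SE 0.06, adjusted p 1.13e-09) with no overlap, and 1.52-fold in IL-13 pre-treated cells. The large scaffold subunits Psmd1 and Psmd2 did not rise. Psmd1 fell 1.11-fold (adjusted p 0.0426) from 335, 359, 371 and 308 CPM to 312, 303, 324 and 299 CPM, with overlapping libraries, and lost the call without untreated day 0 replicate 3 or with a gene length offset. Psmd2 was at -0.07 on the log2 scale (SE 0.06, adjusted p 0.223), though it was called lower with total count scaling and on TPM.

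In the lid, 6 of 8 subunits rose in untreated cells under TMM scaling, each by less than 0.40 on the log2 scale. Psmd14, the deubiquitinase of the lid, was at 87.4, 92.1, 88.4 and 83.8 CPM at day 0 and at 105, 103, 106 and 115 CPM at day 6. It rose 1.22-fold (adjusted p 5.83e-05) with no overlap, but did not pass on TPM (log2 0.07). Psmd11 rose 1.31-fold and Psmd12 1.30-fold, both without overlap. Psmd3, Psmd6 and Psmd13 rose by 0.22, 0.16 and 0.25 on the log2 scale, but none of them passed with total count scaling or on TPM. Of the 16 fits with 1 library left out, Psmd6 lost its call in 15, Psmd3 in 11 and Psmd13 in 3. Psmd7 and Psmd8 stood at -0.12 and -0.13 on the log2 scale in untreated cells and fell by 0.20 and 0.18 in IL-13 pre-treated cells; with total count scaling and on TPM both were lower in untreated cells too. Of the assembly chaperones, Psmd5 fell 1.11-fold in untreated cells (adjusted p 0.00829), from 64.8, 64.2, 63.1 and 62.7 CPM to 58.3, 55.5, 56.4 and 59.3 CPM, and was not called with a gene length offset. Psmd10 passed in IL-13 pre-treated cells (log2 0.19, adjusted p 0.0191) and not in untreated cells, but the test of the difference between treatments did not pass (log2 0.23, SE 0.10, adjusted p 0.190). Psmd9 passed in neither.

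All 4 tested activator genes rose by day 6 with and without IL-13 under TMM scaling, though Psme4 did not pass on TPM. Psme1 and Psme2, which form the PA28 alpha-beta cap, lie on chromosome 14 at chr14:55578123-55581529 (plus strand) and chr14:55587441-55591113 (minus strand). Psme2 was at 48.1, 50.6, 52.5 and 47.4 CPM at day 0 and at 204, 217, 214 and 225 CPM at day 6 in untreated cells. It had the largest fold among the members, 4.33 (log2 2.11, SE 0.07, adjusted p 1.03e-16), and 4.89 in IL-13 pre-treated cells. Other annotated genes hold 28.3% of its 50-base stretches, Psme2b first among them, and Psme2b went to 0 counts while Psme2 rose. Psme1 was at 34.6, 37.9, 40.2 and 39.3 CPM at day 0 and at 62.0, 65.3, 72.9 and 78.6 CPM at day 6, a 1.84-fold rise (adjusted p 2.10e-08). The TPM of Psme2 over that of Psme1 was 1.64 ± 0.0975 at day 0 and 3.88 ± 0.292 at day 6 (SD, n = 4, untreated), without overlap. Psme3, the nuclear PA28 gamma, was at 70.6, 75.4, 74.1 and 68.0 CPM at day 0 and at 132, 137, 137 and 137 CPM at day 6, a 1.89-fold rise (adjusted p 2.71e-12). Psme4, which encodes PA200, was at 106, 109, 97.4 and 99.8 CPM at day 0 and at 144, 153, 122 and 131 CPM at day 6, a 1.33-fold rise (adjusted p 3.51e-05). In each of these genes the days did not overlap.

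**Figure D3:**
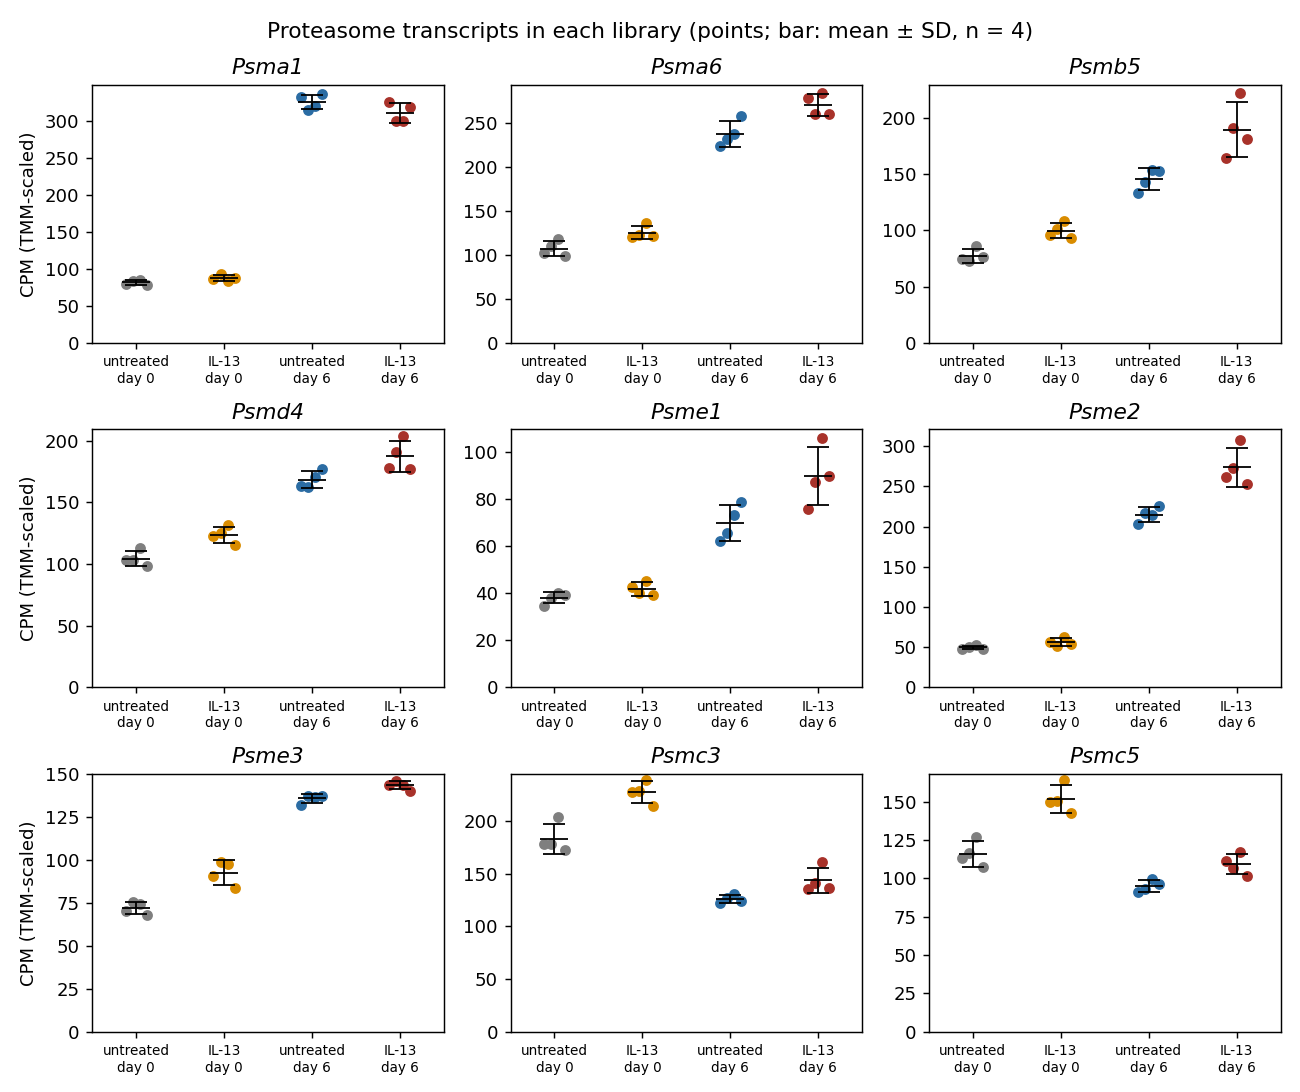
CPM (TMM-scaled, y axis from 0) of 9 members in each of the 16 libraries; points are libraries and bars are mean ± SD (n = 4). Psma1 sits between 77.7 and 92.8 CPM in all day 0 libraries and between 299.9 and 336 CPM in all day 6 libraries, whereas Psmc3 and Psmc5 are lower at day 6.

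At day 0, before differentiation, IL-13 pre-treated cells held slightly more transcript of most members, by a median of 0.23 on the log2 scale with TMM scaling, and the size of that difference moved with the scale used. In edgeR 27 of 38 members were higher and 0 lower, against 23.7% and 24.2% of all 12274 genes (47.9% called in all). With total count scaling 19 were higher and 2 lower (Psmd5 and Psmd10), while all genes split 1682 against 4519 and their median lay at -0.13, compared with -0.01 under TMM. On the deposited TPM 8 were higher and 4 lower, with the median of all genes at -0.19 and that of the members at 0.04. The 8 were Psmb1, Psmb3, Psmb4, Psmb5, Psmc2, Psmc5, Psmd6 and Psme3, and the 4 were Psmc6, Psmd5, Psmd10 and Psmd11. Under each of these scales the members' median lay above that of all genes. In 24 members no library of one group overlapped the other, always with IL-13 higher, against 20.6% of all genes higher and 20.2% lower without overlap. The members' summed level was 4383, 4616, 4807 and 4242 CPM in untreated and 5300, 5412, 5664 and 5054 CPM in IL-13 libraries. No member changed by more than 1.5-fold.

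Libraries also differed in nuclear RNA. Of the 24 tested RNAs of that list, 18 were lower and 0 higher after IL-13 at day 0, and their mean log2 CPM was 6.61, 6.22, 5.89 and 6.47 in untreated and 5.66, 5.62, 5.45 and 5.58 in IL-13 libraries. Between the groups the members' level lay the other way. Within each group, replicates 1, 2 and 3 also ran the other way, with less nuclear RNA and more member transcript from 1 to 3. Replicate 4 departed from that order. In both day 0 groups replicate 3 had the least nuclear RNA and the highest summed level of members. Replicate 4 had the lowest summed level in both, at 4242 CPM untreated and 5054 CPM after IL-13. Its nuclear RNA lay below that of replicate 1 in each group. Whether the 2 levels are linked was not tested. With that nuclear RNA level as a covariate, 0 of 38 members were called and their median was 0.08, and calls over all genes dropped from 5881 to 825; the groups did not overlap in the covariate, so it and IL-13 cannot be told apart here. Without untreated replicates 1 and 4, which had the most nuclear RNA, 16 members were higher and 0 lower, with a median of 0.19. Members also have shorter transcripts, with a median exon length of 2814 bases against 4391 for all tested genes, and with an offset for gene length 23 were higher and 1 lower (Psmd10), with a median of 0.15.

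In the beta ring 7 of 7 tested subunits were higher at day 0 under TMM scaling, 4 of them also on TPM. Psmb3, a structural beta subunit, was at 87.5, 96.0, 106 and 91.8 CPM untreated and at 124, 129, 145 and 121 CPM after IL-13. It had the largest difference, 1.35-fold (log2 0.43, SE 0.07, adjusted p 0.000103), with no overlap. Other annotated genes hold 17.8% of its 50-base stretches. Psmb5 was at 95.8, 101, 108 and 92.9 CPM after IL-13, 1.27-fold above the untreated level (adjusted p 0.000338), again with no overlap. Psmb6 and Psmb7 were 1.22-fold and 1.19-fold higher (adjusted p 0.00185 and 0.00128), and neither passed on TPM. Of the alpha subunits Psma3, Psma4, Psma6 and Psma7 were higher. Psma3 (adjusted p 0.0388) lost its call in 5 of the 8 fits with 1 library left out and the other 3 in 0. Psma1, the leading alpha subunit of differentiation, was at 86.5, 92.8, 83.2 and 87.8 CPM after IL-13 and did not pass (log2 0.09, SE 0.05, adjusted p 0.184).

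Of the base ATPases 5 of 6 were higher at day 0 under TMM scaling, the exception being Psmc6 at 0.00 on the log2 scale (SE 0.05). Psmc5 was at 150.1, 151, 165 and 143 CPM after IL-13, 1.30-fold above untreated (log2 0.38, SE 0.06, adjusted p 0.000119), with no overlap. Psmc2 and Psmc3 were 1.26-fold and 1.23-fold higher. Psmd1, Psmd2 and Psmd4 were each higher, Psmd4 by 1.17-fold (adjusted p 0.00284), and Psmd4 did not pass with total count scaling or on TPM. Of the lid 6 of 8 subunits were higher, from Psmd12 at 0.15 to Psmd13 at 0.35 on the log2 scale, and Psmd11 and Psmd14 did not pass. With 1 library left out, Psmd12 lost its call in 4 of 8 fits and Psmd3 in 3. Psmd12 was called higher in 4 of the 12 other settings. None of the 3 assembly chaperones passed.

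Of the activator genes 2 of 4 were higher at day 0 under TMM scaling. Psme3 was at 90.8, 99.0, 97.4 and 83.4 CPM after IL-13, compared with 68.0 to 75.4 CPM untreated, 1.27-fold higher (log2 0.35, SE 0.06, adjusted p 0.000211) with no overlap. Psme2 was at 56.1, 51.3, 62.8 and 53.7 CPM after IL-13 with overlap, and its call (log2 0.16, SE 0.06, adjusted p 0.0489) was lost in DESeq2, without 6 of the 8 libraries when each was left out, and on TPM, where the sign turned (log2 -0.04). Psme1 and Psme4 did not pass (log2 0.12 and 0.10, adjusted p 0.139 and 0.118). The inducible subunit Psmb10 was at 7.37, 8.62, 9.09 and 8.14 CPM untreated and at 11.4, 14.1, 12.6 and 11.7 CPM after IL-13, higher by 0.57 on the log2 scale (SE 0.10, adjusted p 0.000303). Psmb8 and Psmb9 did not pass (adjusted p 0.0597 and 0.265).

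**Figure D4:**
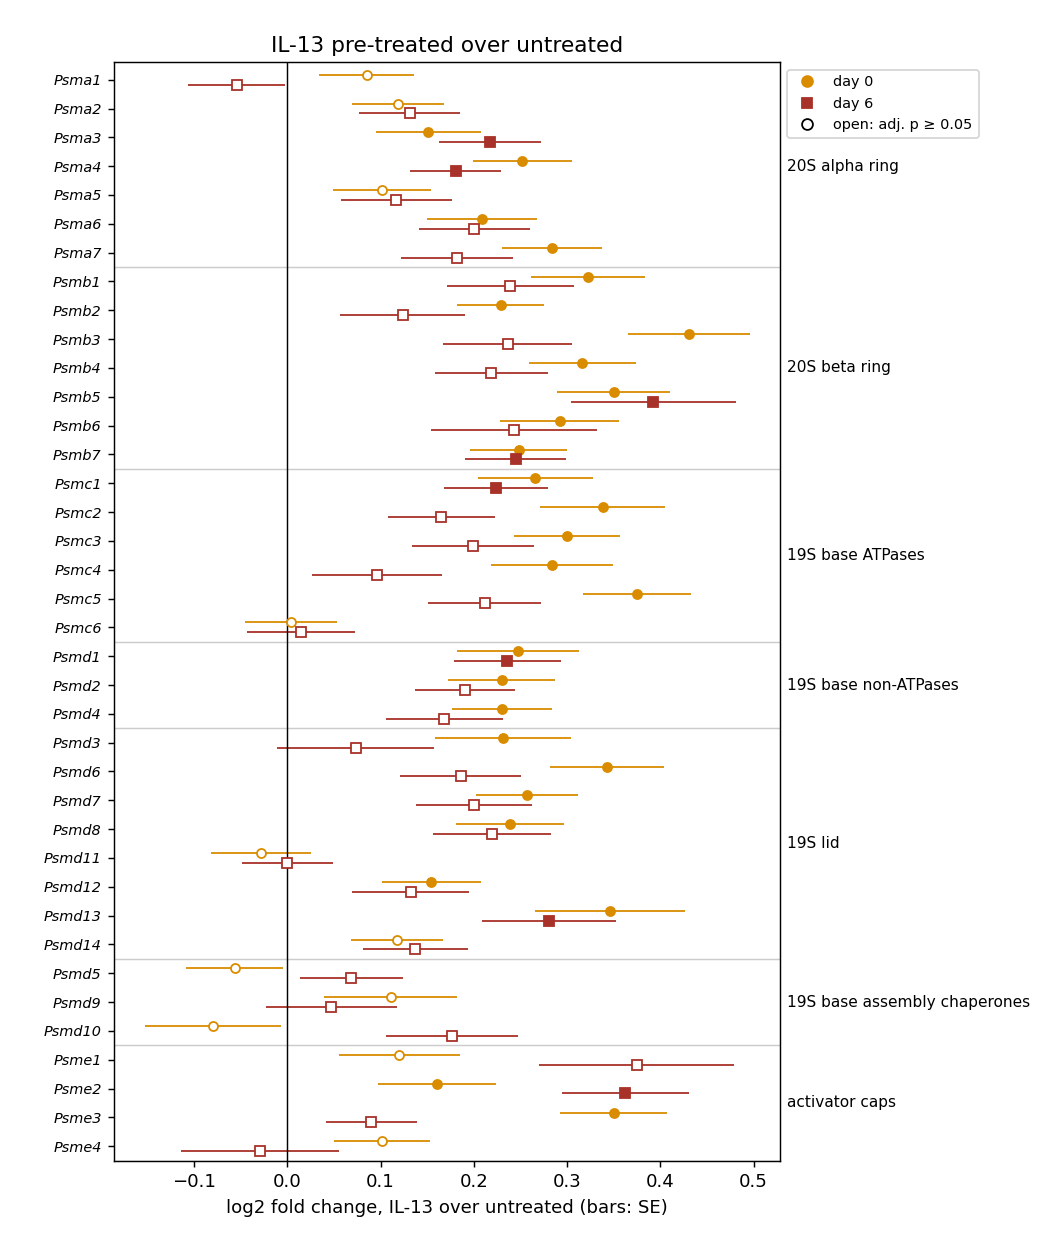
Log2 fold change of each tested member, IL-13 pre-treated over untreated (x axis; bars are SE), at day 0 (orange circles) and day 6 (red squares) with TMM scaling; open symbols did not pass an adjusted p of 0.05. At day 0, 27 of 38 passed, all above 0, and at day 6, 8 passed, all above 0.

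At day 6, after differentiation, 8 members were higher in IL-13 pre-treated cells and 0 lower under TMM scaling, namely Psma3, Psma4, Psmb5, Psmb7, Psmc1, Psmd1, Psmd13 and Psme2. Of all 12352 genes, 2.25% were called higher and 4.35% lower (6.6% in all), and the members' median was 0.18 on the log2 scale against 0.01 for all genes. All 8 were also among the members called at day 0, which were 27 of the 38 tested. The share of all genes called on both days was not counted. Libraries of the 2 days are separate, but nuclear RNA was lower after IL-13 on both. Psmb5 was at 164, 191, 222 and 181 CPM after IL-13 and at 133 to 153 CPM untreated, 1.31-fold higher (log2 0.39, SE 0.09, adjusted p 0.0302) with no overlap. Psme2 was at 262, 273, 308 and 253 CPM after IL-13 and at 204 to 225 CPM untreated, 1.29-fold higher (log2 0.36, SE 0.07, adjusted p 0.0169), also with no overlap. Psmb7 was at 217, 206, 228 and 204 CPM after IL-13 and at 177 to 185 CPM untreated, 1.18-fold higher (adjusted p 0.0276). With total count scaling and on TPM, Psmb5 and Psme2 were the 2 members called.

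The day 6 calls depended on single libraries. No member was called without untreated replicate 1, without untreated replicate 2 or without IL-13 replicate 2, and 1, 3 and 4 were called without IL-13 replicate 3, IL-13 replicate 4 and untreated replicate 3. Without IL-13 replicate 1, 14 were called, and DESeq2 called 17. In 23 members the 2 groups did not overlap, all with IL-13 higher, against 8.11% of all genes higher and 7.92% lower without overlap. Nuclear RNA differed here too: 15 of 24 tested RNAs of that list were lower and 0 higher after IL-13, with a mean log2 CPM of 7.17, 7.03, 6.58 and 6.76 untreated and 6.27, 5.89, 5.69 and 6.08 after IL-13. With that level as a covariate 0 members were called and their median was 0.0048, and 0 genes were called in all. Without untreated replicates 1 and 2, which had the most nuclear RNA, 0 members and 2 genes were called, with a members' median of 0.12. The covariate and IL-13 cannot be told apart, as its groups did not overlap.

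**Figure D5:**
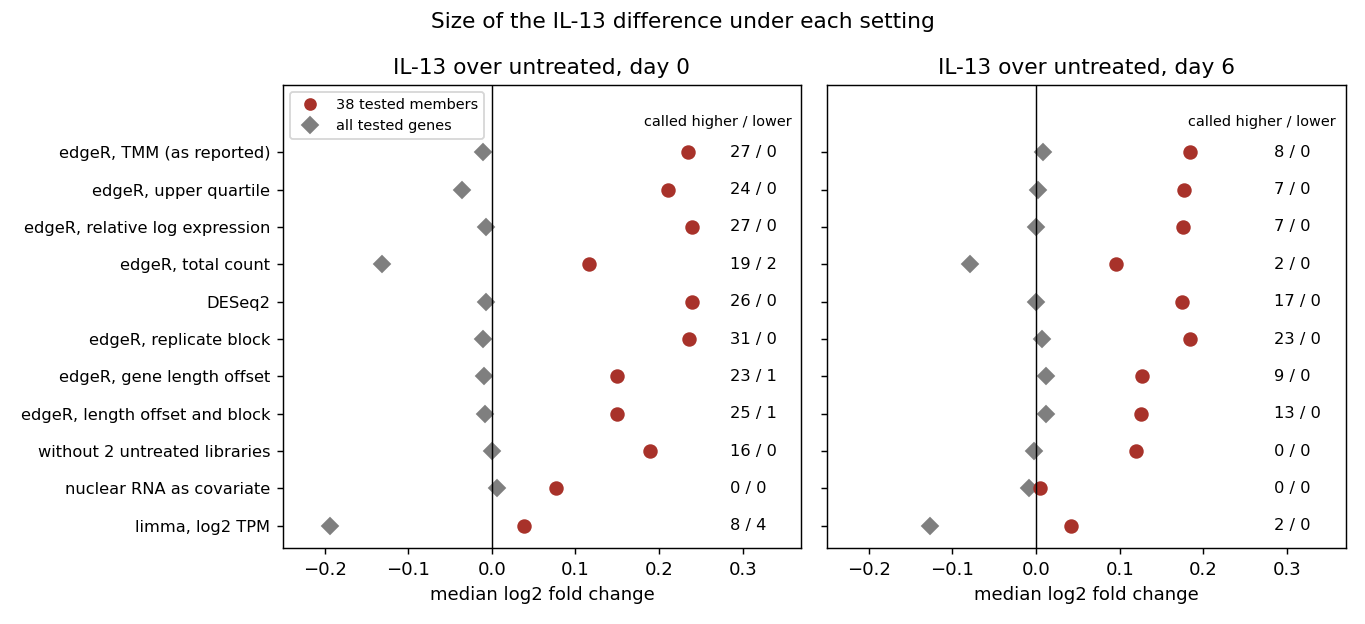
Median log2 fold change, IL-13 over untreated, of the 38 tested members (red circles) and of all tested genes (grey diamonds) under each setting (rows), at day 0 (left) and day 6 (right), with the number of members called higher and lower. The members' median at day 0 is 0.23 with TMM and 0.04 on TPM, and lies to the right of the all-gene median in each row.

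Whether IL-13 acted unequally on the members at day 0 and day 6 was tested in all 16 libraries, and 8.06% of 13157 genes were called, 3.12% higher and 4.95% lower at day 6. Of the members 0 were higher and 1 was lower, Psme3. After IL-13 at day 6 it stood at 144, 146, 143 and 140.3 CPM and untreated at 132, 137, 137 and 137 CPM, so the effect was 0.09 on the log2 scale (SE 0.05, adjusted p 0.254), compared with 0.35 at day 0. The difference was -0.29 (SE 0.08, adjusted p 0.0252). It passed with 8 of the 16 libraries as the TMM reference (adjusted p from 0.0203 to 0.0644), and not with relative log expression scaling or on TPM. Leaving out 1 library at a time, it passed in 2 of 16 cases, without untreated day 0 replicate 3 and without IL-13 day 0 replicate 4. The other members did not pass and ran from Psmd10 at 0.23 (SE 0.10) to Psmb3 at -0.22 (SE 0.10). In simulated counts the test recovered 2% of genes changed 1.2-fold and 58% of those changed 1.5-fold. Only 50 randomly drawn genes were changed at each fold there, against 1061 genes called in the data. Those rates therefore do not measure recovery of the members.

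Other genes that build and feed the proteasome were taken from fixed lists. Their counts in untreated differentiation stand against 41.5% of all genes higher and 39% lower. Of 11 tested genes around Nfe2l1, 8 were higher and 2 lower at day 6 in untreated cells, with 80.5% of all genes called. Nfe2l1 itself was at 273, 279.9, 299 and 282 CPM at day 0 and at 429, 447, 455 and 454 CPM at day 6, a rise of 0.66 on the log2 scale (SE 0.05, adjusted p 1.47e-10) with no overlap. Its processing factor Ngly1, which removes its sugars, rose by 0.97, and its partner Maff by 1.77, while Vcp, the ATPase that extracts it from the endoplasmic reticulum, fell by 0.77. IL-13 did not move Nfe2l1 past the threshold on either day (log2 0.08 and 0.13, adjusted p 0.192 and 0.16). Of the 10 genes of that list tested at day 0, 2 were higher and 4 lower after IL-13, against 23.7% and 24.2% of all genes. Maff was lower by 0.63 (adjusted p 0.000321) and Ddi2, the protease that cleaves Nfe2l1, by 0.29, while Keap1 and Vcp were higher by 0.27 and 0.23. At day 6 Vcp was higher by 0.23 and Mafg lower by 0.29, and Maff stood at 0.06. The IL-13 effect on Maff differed between the days (log2 0.67, SE 0.15, adjusted p 0.00829).

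Of 5 tested assembly factors for the core, Psmg1, Psmg2 and Psmg4 rose by 0.72, 0.85 and 0.91 on the log2 scale in untreated cells. Pomp, the maturation factor of the core, was at 92.7 ± 6.10 CPM at day 0 and 96.1 ± 7.99 CPM at day 6 (SD, n = 4) and did not pass (log2 0.05, adjusted p 0.462), though it was called lower on TPM (log2 -0.16). Pomp was higher after IL-13 by 0.26 on both days (adjusted p 0.00235 and 0.0383). The ubiquitin receptor Adrm1 rose by 0.39 with differentiation in untreated cells (adjusted p 0.00979) and was higher after IL-13 at day 0 by 0.31 (adjusted p 0.001). At day 6 its value was 0.14 (adjusted p 0.579), and the difference between the days did not pass (log2 -0.19, SE 0.18, adjusted p 0.61). Among 12 other caps, associated proteins and inhibitors 6 rose and 2 fell in untreated cells, led by Zfand5, a proteasome-binding activator, at 0.79. Of 11 tested genes that supply and deliver ubiquitin 5 rose and 4 fell, and the paralogous shuttle factors Ubqln1 and Ubqln2 went apart, by 1.44 and -1.56 on the log2 scale (adjusted p 7.72e-16 and 1.72e-13).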

How the data were processed

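Per the labels' protocols, the 16 libraries were made with the Illumina TruSeq Stranded mRNA kit from 2 ug of column-purified total RNA each. The authors deposited raw counts per gene and TPM, which is scaled to a length for each gene and to library size. The build was mm10, per the submitters' processing notes, and for the aligner, counting tool, annotation and strand setting the entry is "not given in the sources used here". Members and lists were chosen with earlier results of these data known. Counts were tested in R 4.3.3 with edgeR 4.0.16 (filterByExpr, TMM, robust quasi-likelihood fit, Benjamini-Hochberg adjustment over all genes tested, call at an adjusted p under 0.05). IL-13 comparisons used the 8 libraries of a day, and differentiation and the difference between days used all 16. Alternatives were other scalings, DESeq2 1.42.0, no filter, a replicate block, a gene length offset, nuclear RNA as a covariate, each library left out, and limma 3.58.1 on log2 TPM. On simulated counts, 28% of genes changed 1.2-fold were recovered at day 0, 12% at day 6 and 2% for the difference between days. The simulation changed 50 randomly drawn genes at each fold, so these rates do not measure recovery of the members. Genes named outside the members were up to 3 called with the smallest adjusted p per list and comparison, plus Nfe2l1, Psmb8, Psmb9, Psmb10, Pomp and Adrm1. Values of Vcp and Maff are also given in comparisons where that rule did not name them. Members shown by library were the catalytic and cap subunits, Psmd4, Psmd14 and the 3 leading calls per direction.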

Additional observations from a re-analysis of the deposited data

Results flagged for a closer look

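In each group of 4 libraries, the gap between an extreme library and its nearest neighbour was compared with the group's range for 22 members and for Nfe2l1, Psmb8, Psmb9, Psmb10, Pomp and Adrm1. Of 112 such groups 3 held an isolated library, and chance gives about 1 in 20. Psma6 was highest in IL-13 day 0 replicate 3, at 136 CPM, with the other libraries of the group between 121 and 122 CPM. Psmb1 was highest in the same library, at 289 CPM, with the others between 258 and 263 CPM. Psme3 was lowest in untreated day 6 replicate 1, at 132 CPM, with the others at 137 CPM. The IL-13 effect on Psme3 passed the test of the difference between days, at -0.287 on the log2 scale (SE 0.0779, edgeR adjusted p 0.0252). That call held in only 2 of 16 fits with 1 library left out, and with 8 of 16 libraries as the TMM reference. It did not pass with relative log expression scaling or on TPM. The test of the difference also passed for Maff, the partner of Nfe2l1, at 0.668 (SE 0.155, edgeR adjusted p 0.00829). The IL-13 effect on Maff was -0.63 at day 0 and 0.06 at day 6.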

How the results depend on the processing

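The alternatives with TPM, relative log expression scaling and other reference libraries were chosen after seeing the data. At day 0, 27 members were higher after IL-13 and 0 lower. The count of higher members was 0 with the nuclear RNA covariate, 16 without the 2 untreated libraries richest in it, and 8 on TPM. Lower members numbered 2 with total counts, 1 with the length offset, 1 with length offset and replicate block together, and 4 on TPM. The median was 0.12 with total counts, 0.15 with the length offset, 0.15 with length offset and block, 0.0769 with the covariate and 0.0385 on TPM. Psme2 turned to -0.0048 with the covariate and -0.0418 on TPM.

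At day 6, 8 were higher. The count was 0 at an adjusted p under 0.01, 2 with total counts, 17 in DESeq2, 23 with the replicate block, 13 with length offset and block, 0 with the covariate, 0 without the 2 untreated libraries and 2 on TPM. The median was 0.10 with total counts, 0.13 with the length offset, 0.13 with length offset and block, 0.0048 with the covariate, 0.12 without the 2 libraries and 0.0423 on TPM. Leaving out 1 library at a time gave 0 to 14. With the covariate Psmb5 turned to -0.11, Pomp to -0.0016 and the ubiquitin-activating enzyme Uba1 to -0.0122.

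For differentiation in untreated cells, 15 were higher on TPM. Lower members numbered 10 with total counts, 9 with upper quartile scaling, 8 without a filter and 13 on TPM. The median was 0.16, 0.19, 0.18 (length offset), 0.18 (length offset and replicate block) and 0.0503 on TPM, where Pomp turned to -0.16. In IL-13 pre-treated cells, 5 were lower at 0.01, and the median was 0.0802 with the length offset, 0.0775 with length offset and replicate block, and 0.0741 on TPM.

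For the difference between days, 1 member was higher with length offset and block and 2 on TPM. Lower members numbered 0 at 0.01, with relative log expression scaling, without a filter and on TPM. The median was -0.0166 without a filter, -0.00093 on TPM and from -0.113 to 0.0019 with 1 library left out. With 1 library left out, lower members numbered 4 to 8 for differentiation in untreated cells, 4 to 9 in IL-13 pre-treated cells and 0 to 1 for the difference between days. The cause of these shifts was not tested.

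The labels do not say that equal replicate numbers mark a shared culture or day. Deviations of same-numbered libraries correlated from -0.083 to 0.215, 9 of 16 over 0.1, so not every pair passed the limit for treating them as paired; in 11 of 16 cases the own number correlated best, a hint from the data that some numbers share a source. With the replicate block, calls at day 6 went from 8 to 23 members and from 815 to 2812 genes, and at day 0 from 27 to 31 members.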
